A study of Mus musculus with 12 samples.

Results

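Sprr1a, Prr9, Clca3b, Gzme and Ly6d, 5 of the 53599 genes in a count table of mouse liver cell cultures, were followed across 4 groups of 3 libraries. The genes were chosen by symbol from measured values, for a large difference between 3D and 2D culture. That difference is therefore given as a description, without a test. The working name of the set, squamous and granzyme genes lost in 3D, held for 4 of the 5 genes. Ly6d went the other way, with more counts in every 3D library than in any 2D library, so the set is described below by its gene names.

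RNA-seq was made from bilCLiP cells, which per the labels derive from biliary epithelial cells, and from hepCLiP cells, which derive from hepatocytes. The bilCLiP 3D group consisted of RosaYFP cells grown as spheroids, which formed over 3 days without fetal bovine serum (FBS). Oncostatin M, an interleukin 6 type cytokine, was then given at 10 ng/ml during 6 to 8 days of suspension culture. The bilCLiP 2D group consisted of RosaYFP cells on collagen with 10% FBS and no oncostatin M. The hepCLiP 3D and hepCLiP 2D groups were grown like the bilCLiP groups of the same culture, with RosaConfetti cells as replicates 1 and 3 and RosaYFP cells as replicate 2. RosaYFP and RosaConfetti are fluorescent reporters at the Rosa26 locus. All 4 groups were kept in small hepatocyte medium with Y-27632, a kinase inhibitor, A83-01, an inhibitor of TGF-beta receptors, and CHIR99021, an inhibitor of GSK3. Geometry, serum, oncostatin M and time in culture differ together between 3D and 2D, so their effects cannot be told apart. RosaConfetti occurs only among hepCLiP libraries, so genotype and origin are partly confounded. Whether replicates stem from different animals is not stated, and p-values therefore reflect the spread among these libraries alone.

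Small proline-rich proteins such as the Sprr1a product are cross-linked by transglutaminases into the cornified envelope, the protein shell that squamous cells of skin and other stratified epithelia build under the plasma membrane. Their genes lie with those of involucrin, loricrin and the late cornified envelope proteins in the epidermal differentiation complex, a gene cluster that also holds Prr9. Gzme encodes granzyme E, a serine protease of the granules of mouse cytotoxic lymphocytes, Clca3b a member of the family of calcium-activated chloride channel regulators, and Ly6d a small surface protein held in the membrane by a lipid anchor, known from stratified epithelia and from early B lineage cells. None of the 5 is a standard marker of hepatocytes or bile duct cells.

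Total counts per library were 16142365 to 21253382, and 12822 to 14067 genes reached 10 counts. Groups follow the sample titles, because the treatment tag goes against the title in 4 samples, hepCLiP 2D replicate 3 and the 3 bilCLiP 3D libraries. Across genes, log2(CPM + 1) of hepCLiP 2D replicate 3 had a Pearson's r of 0.96 and 0.968 with the other hepCLiP 2D libraries and of 0.836 to 0.867 with the hepCLiP 3D libraries. The summed level of 10 hepatocyte markers was 73528 to 119213 CPM in bilCLiP 3D, against 2626 to 5516 CPM in bilCLiP 2D. It was 107201 to 161147 CPM in hepCLiP 3D, against 4384 to 7006 CPM in hepCLiP 2D. CPM values are counts per 1e6 of the TMM effective library size.

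A RefSeq promoter window of 250 bases before to 50 bases after the annotated start was at hand for 4 of the 5 genes, all on the minus strand of GRCm38.p6. They are shown because Sprr1a and Prr9, from the same gene cluster, can be read beside Clca3b and Gzme, which share their direction but not their neighbourhood. Each is printed 5′ to 3′ on the strand of the gene. The windows lie at chr3:92485832-92486131 for Sprr1a, chr3:92123898-92124197 for Prr9, chr3:144849253-144849552 for Clca3b and chr14:56120576-56120875 for Gzme. Capitals mark matches to the AP-1 motif TGANTCA, bound by Fos and Jun family factors, to the TATA box TATAAA, and to the STAT motif TTCNNNGAA.
Sprr1a: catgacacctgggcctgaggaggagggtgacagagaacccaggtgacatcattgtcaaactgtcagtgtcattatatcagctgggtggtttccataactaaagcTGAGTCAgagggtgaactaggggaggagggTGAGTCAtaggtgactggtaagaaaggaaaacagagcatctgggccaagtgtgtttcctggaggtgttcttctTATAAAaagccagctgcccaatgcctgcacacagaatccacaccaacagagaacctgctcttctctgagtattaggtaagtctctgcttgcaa
Prr9: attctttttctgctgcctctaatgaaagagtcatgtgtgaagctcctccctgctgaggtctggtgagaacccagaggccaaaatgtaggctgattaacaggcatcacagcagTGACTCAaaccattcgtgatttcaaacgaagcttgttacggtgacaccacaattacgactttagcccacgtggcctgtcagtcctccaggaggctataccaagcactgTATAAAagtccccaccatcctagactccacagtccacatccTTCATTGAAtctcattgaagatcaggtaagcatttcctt
Clca3b: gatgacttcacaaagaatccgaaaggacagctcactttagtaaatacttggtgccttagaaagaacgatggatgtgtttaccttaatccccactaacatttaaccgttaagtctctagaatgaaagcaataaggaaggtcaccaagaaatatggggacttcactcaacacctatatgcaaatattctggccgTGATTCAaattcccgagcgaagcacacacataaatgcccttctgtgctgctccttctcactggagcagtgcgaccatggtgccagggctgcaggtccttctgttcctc
Gzme: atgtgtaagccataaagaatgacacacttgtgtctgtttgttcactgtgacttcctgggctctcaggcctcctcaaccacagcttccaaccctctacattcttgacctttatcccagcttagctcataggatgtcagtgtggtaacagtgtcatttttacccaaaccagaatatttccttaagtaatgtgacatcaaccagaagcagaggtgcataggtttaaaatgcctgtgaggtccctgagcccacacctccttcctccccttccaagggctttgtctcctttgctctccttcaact

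Both strands were searched, and no match overlapped another. The AP-1 and STAT motifs read the same on both strands, and the TATA boxes lay on the gene's own strand. Sprr1a held 2 AP-1 matches, which began 146 and 116 bases before the start, and a TATA box 43 bases before it. Prr9 held an AP-1 match 138 bases before the start, a TATA box 30 bases before it, and a STAT match that began 11 bases after it. Clca3b held an AP-1 match 58 bases before the start. The window of Gzme held none of these letters, and no window held the TEAD motif GGAATG. Among 32851 RefSeq promoters of the same length, 7.81% held an AP-1 match and 0.46% held 2 or more. A TATA box was in 13.6% of them, a STAT match in 8.3% and a TEAD match in 14.7%. The matches are descriptions of sequence, and no binding was measured. No promoter was at hand for Ly6d.

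**Figure D1:**
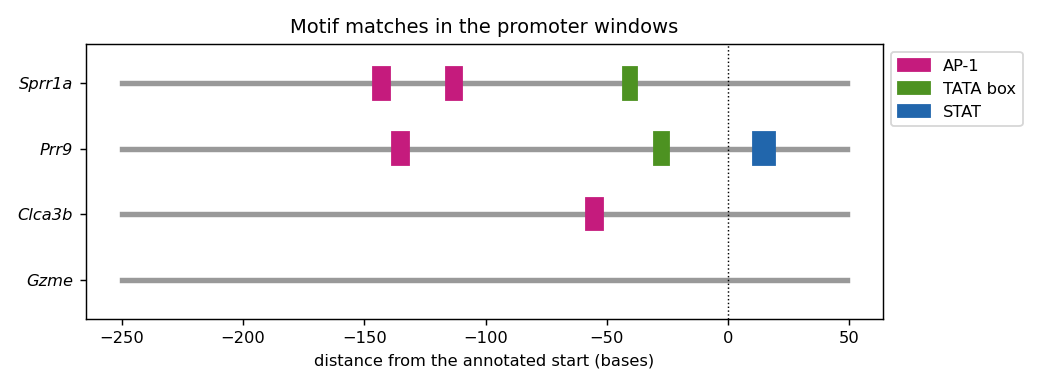
Position of motif matches in the promoter windows of Sprr1a, Prr9, Clca3b and Gzme. The x axis is the distance from the annotated start in bases, each grey line is one window, and coloured boxes are matches to AP-1, the TATA box or STAT; Sprr1a has 2 AP-1 matches, Prr9 and Clca3b have 1 each, and Gzme has none.

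Sprr1a, which encodes a precursor of the cornified envelope, was a trace in the 3D cultures and among the most abundant transcripts in 2D. Its counts were 8, 94 and 22 in the bilCLiP 3D libraries, against 37566, 69344 and 41344 in bilCLiP 2D. They were 18, 22 and 94 in the hepCLiP 3D libraries, against 71789, 65915 and 44311 in hepCLiP 2D. No 3D library came near the range of the 2D libraries. The level averaged 2.40 ± 2.62 CPM in bilCLiP 3D and 2066 ± 561 CPM in bilCLiP 2D (SD, n = 3 each), and 3.14 ± 2.94 CPM in hepCLiP 3D and 2844 ± 569 CPM in hepCLiP 2D. By summed counts the gene was 840.5-fold lower in bilCLiP 3D and 899-fold lower in hepCLiP 3D, and the fitted log2 fold changes were -9.73 ± 1.02 and -9.82 ± 1.02 (SE). Without bilCLiP 3D replicate 2 the value in bilCLiP was -11.14, and without hepCLiP 3D replicate 3 that in hepCLiP was -10.94. These are the libraries with 94 counts.

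Per kilobase of transcript, Sprr1a ranked 9114 of 50067 genes in bilCLiP 3D and 7 in bilCLiP 2D, at mean levels of 2.98 and 2563 CPM per kilobase. Its rank was 8334 in hepCLiP 3D and 3 in hepCLiP 2D, at 3.89 and 3528 CPM per kilobase. The other 3 genes with lower levels in 3D stood below it in 2D on this scale. Clca3b reached 15 CPM per kilobase in bilCLiP 2D and 18.1 in hepCLiP 2D, Gzme 6.47 and 4.89, and Prr9 5.81 and 0.944.

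Prr9, a proline-rich protein gene of the same complex, was close to or at 0 in 3D. No read was counted in any bilCLiP 3D library, against 291, 86 and 104 counts in bilCLiP 2D. In hepCLiP 3D the counts were 0, 0 and 1, against 24, 46 and 3 in hepCLiP 2D. Taking 3 counts summed over the group as the floor, Prr9 was at least 113-fold lower in bilCLiP 3D than in bilCLiP 2D. In hepCLiP the ratio of 3D to 2D was 0.0207, with an exact 95% interval of 0.000517 to 0.119. Intervals and floors here cover counting error only. The library of hepCLiP 2D with 3 counts, replicate 3, was close to the 3D range, at 0.15 CPM against 1.11 and 2.09 CPM in the other 2D libraries. It is also the one whose treatment tag says 3D. The same library had 2214 CPM of Sprr1a, 93.0 CPM of Clca3b and 9.34 CPM of Gzme, above every 3D library. Its Ly6d level, 1.2 CPM, was below every 3D library. The fitted log2 fold change of Prr9 was -10.02 ± 1.58 in bilCLiP, which depends on the prior count because one group is at 0. In hepCLiP it was -5.22 ± 1.36. The hepCLiP value was -7.44 without hepCLiP 3D replicate 3, the library with 1 count, and -4.40 without 2D replicate 2.

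Clca3b, the chloride channel regulator gene, had 1, 0 and 2 counts in bilCLiP 3D, against 1708, 443 and 1329 in bilCLiP 2D. Its counts were 1, 14 and 2 in hepCLiP 3D, against 890, 1071 and 1862 in hepCLiP 2D. The ratio of 3D to 2D was 0.00123 in bilCLiP (exact 95% interval 0.000253 to 0.00359), and the gene was 149-fold lower in hepCLiP 3D by summed counts. The fitted log2 fold changes were -9.56 ± 1.03 in bilCLiP and -7.22 ± 0.85 in hepCLiP. Of the 17 counts in hepCLiP 3D, 14 came from replicate 2, and without it the hepCLiP value was -9.07. The bilCLiP value was -10.40 without 3D replicate 3.

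Gzme, the granzyme E gene, had 1, 0 and 0 counts in bilCLiP 3D, against 322, 29 and 61 in bilCLiP 2D. It had 3, 0 and 2 counts in hepCLiP 3D, against 74, 15 and 187 in hepCLiP 2D. The groups did not overlap, but within each origin the 2D libraries spanned more than 10-fold. The ratio of 3D to 2D was 0.00345 in bilCLiP (exact 95% interval 8.72e-05 to 0.0193) and 0.0274 in hepCLiP (0.00881 to 0.0646). The fitted log2 fold changes were -7.78 ± 1.64 and -5.16 ± 1.36. In bilCLiP the value was -6.17 without 2D replicate 1 and -9.84 without 3D replicate 1, and in hepCLiP it was -4.04 without 2D replicate 3.

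Ly6d, the lipid-anchored surface protein gene, had 140, 80 and 520 counts in bilCLiP 3D, against 0, 0 and 2 in bilCLiP 2D. In hepCLiP 3D it had 531, 472 and 721 counts, against 0, 7 and 24 in hepCLiP 2D. Every 3D library was above every 2D library of its origin, the reverse of the other 4 genes. The level averaged 14.7 ± 13.6 CPM in bilCLiP 3D and 0.0304 ± 0.0526 CPM in bilCLiP 2D, and 40.8 ± 8.48 CPM in hepCLiP 3D and 0.506 ± 0.621 CPM in hepCLiP 2D (SD, n = 3 each). By summed counts the ratio of 3D to 2D was 526 in bilCLiP (exact 95% interval 145 to 4354) and 84.0 in hepCLiP (58.9 to 124). The fitted log2 fold changes were 8.71 ± 1.36 and 6.34 ± 1.05. They were 11.09 in bilCLiP without 2D replicate 3, 7.63 in bilCLiP without 3D replicate 3, and 7.93 in hepCLiP without 2D replicate 3. On the scale of CPM per kilobase, Ly6d ranked 3022 of 50067 genes in bilCLiP 3D and 19089 in bilCLiP 2D, and 1155 in hepCLiP 3D and 11929 in hepCLiP 2D.

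All 5 genes passed the filter on low counts, with 14798 genes tested in all. In both origins, 4 of the 5 genes were lower in 3D with no overlap between the groups and 1 was higher. Of all genes tested, 24.5% were lower without overlap in bilCLiP 3D and 24.6% higher, and in hepCLiP 3D 24.5% were lower and 22.3% higher. Since the genes were picked on this contrast, nothing is read from their count. In these bulk samples, fewer cells that hold a transcript and less of it per cell cannot be told apart.

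**Figure D2:**
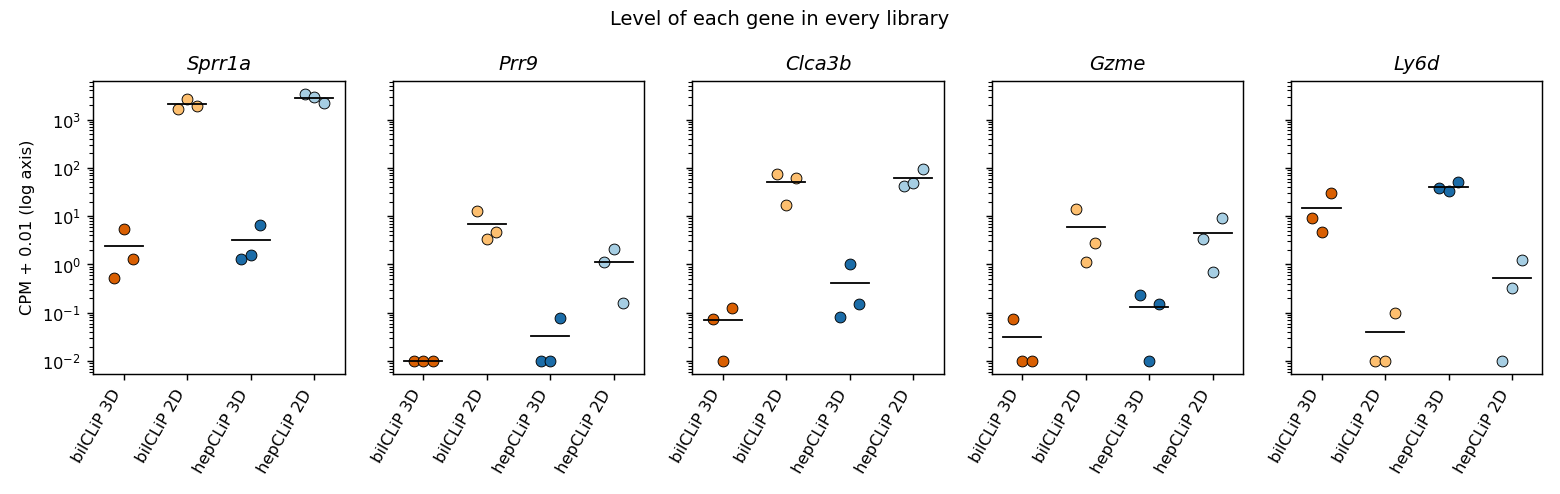
Level of Sprr1a, Prr9, Clca3b, Gzme and Ly6d in each of the 12 libraries. The y axis is CPM plus 0.01 on a log scale, points are libraries and bars are means of 3; Sprr1a, Prr9, Clca3b and Gzme lie lower in 3D than in 2D in each origin, and Ly6d lies higher.

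Counts of 2 of the genes are subject to sequence shared within their families. In the GENCODE M21 transcripts, 20.6% of the windows of 50 bases in Gzme also occur in Gzmd, Gzmg, Gzmc or Gzmn, and none of the windows of 100 bases do. For Clca3b the shares were 6.68% and 0.608%, with Clca3a1 and Clca3a2. No such window was shared by Sprr1a, Prr9 or Ly6d. No source used here gives the read length or the handling of reads with several matches, so values of Gzme and Clca3b are uncertain to that extent. Gzmd had 8 counts over all libraries and Gzmg, Gzmc and Gzmn had none.

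The 5 genes were not chosen on the comparison of origins, so it could be tested. None was called between bilCLiP and hepCLiP in 2D by edgeR's quasi-likelihood test (Benjamini-Hochberg adjusted p under 0.05 over all genes), where 0.135% of all genes were called. None was called in 3D, where 0.101% were. DESeq2 called none of the 5 in either culture. The lowest unadjusted edgeR p-values in 2D were 0.0168 for Prr9 and 0.0335 for Ly6d, and in 3D all lay above 0.05. The share of all genes with unadjusted values that low is not given here, so nothing is read from them.

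In 2D, Prr9 averaged 6.87 ± 4.95 CPM in bilCLiP and 1.12 ± 0.971 CPM in hepCLiP (SD, n = 3 each). All 3 bilCLiP libraries, at 3.34 to 12.5 CPM, were above all 3 hepCLiP libraries, at 0.15 to 2.09 CPM, as were 9.06% of all genes. The log2 difference of bilCLiP over hepCLiP was 2.61 ± 0.885 (SE; edgeR adjusted p = 0.253), and DESeq2 gave an adjusted p of 0.0794. For Ly6d the log2 difference in 2D was -3.85 ± 1.58 (edgeR adjusted p = 0.309), on 2 counts in bilCLiP and 31 in hepCLiP. Sprr1a differed by -0.46 ± 0.692 (edgeR adjusted p = 0.802), with overlapping groups at 1618 to 2695 CPM in bilCLiP 2D and 2214 to 3321 CPM in hepCLiP 2D. Clca3b differed by -0.27 ± 0.59 (adjusted p = 0.868) and Gzme by 0.40 ± 1.01 (adjusted p = 0.89), both with overlapping groups. The sign for Clca3b and Gzme in 2D turned round when single libraries were left out, with ranges of -0.65 to 0.16 and -1.20 to 1.52. The intervals implied by these errors leave room for differences of several-fold in either direction for Gzme.

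In 3D, all 3 hepCLiP libraries of Ly6d, at 33.5 to 50.1 CPM, were above all 3 bilCLiP libraries, at 4.59 to 30.2 CPM, and 10.1% of all genes were lower in bilCLiP 3D in that way. The log2 difference of bilCLiP over hepCLiP was -1.48 ± 0.818 (edgeR adjusted p = 0.384). Sprr1a differed by -0.38 ± 0.765 (adjusted p = 0.844). Without hepCLiP 3D replicate 3 that difference was 0.74, and without bilCLiP 3D replicate 1 it was 0.07. Clca3b (-2.62 ± 1.41, adjusted p = 0.37), Prr9 (-2.19 ± 2.24, adjusted p = 0.647) and Gzme (-2.22 ± 2.08, adjusted p = 0.608) rested on at most 17 counts per group. The order of group levels was therefore hepCLiP 2D, bilCLiP 2D, hepCLiP 3D and bilCLiP 3D for Sprr1a and Clca3b, with the same order but for bilCLiP 2D in front for Prr9 and Gzme. For Ly6d it was hepCLiP 3D, bilCLiP 3D, hepCLiP 2D and bilCLiP 2D. In no case did neighbours of the same culture differ by a called amount.

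The genes varied in different ways among the 2D libraries. In the 6 libraries of 2D culture, as deviations from the mean of their group on the log2(CPM + 1) scale, Clca3b and Sprr1a had a Pearson's r of -0.975. Libraries with more Sprr1a had less Clca3b within their group. In bilCLiP 2D, replicate 2 had the highest Sprr1a level at 2695 CPM and the lowest Clca3b level at 17.2 CPM. In hepCLiP 2D, replicate 3 had the lowest Sprr1a level at 2214 CPM and the highest Clca3b level at 93.0 CPM. Gzme followed Clca3b, with an r of 0.76, and ran against Sprr1a, with an r of -0.808. Prr9 had an r of -0.194 with Sprr1a, a gene of the same complex, and of 0.138 with Gzme. These values describe 6 libraries that share group means and carry no test.

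**Figure D3:**
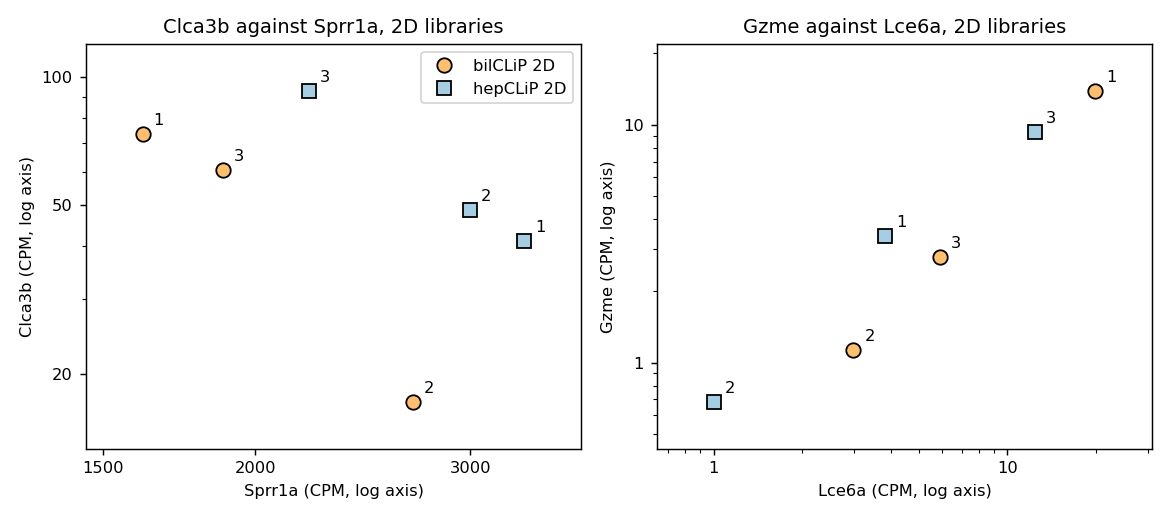
Clca3b against Sprr1a (left) and Gzme against Lce6a (right) in the 2D libraries, in CPM on log axes. Circles are bilCLiP 2D and squares hepCLiP 2D, numbered by replicate; within each group Clca3b is lower where Sprr1a is higher, and Gzme is higher where Lce6a is higher.

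The genes whose pattern was most like each of the 5 were taken from 10771 candidates by Pearson's r of log2(CPM + 1) over 12 libraries. Because all of them separate the cultures, the r of deviations from group means is given beside it. For Sprr1a these were Arpc5 (r = 0.984, deviations 0.478), a subunit of the actin-branching Arp2/3 complex, Thbd (0.983, deviations 0.06), encoding thrombomodulin, and Lgals3 (0.982, deviations 0.65), encoding galectin-3. For Prr9 they were Palm3 (0.942, deviations 0.817), Snx30 (0.94, deviations 0.764) and Washc4 (0.94, deviations 0.603). For Clca3b they were Loxl2 (0.988, deviations 0.733), an enzyme that cross-links collagen, Pitpnc1 (0.986, deviations 0.819) and Sorbs2 (0.984, deviations 0.733).

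For Gzme the closest were Lce6a (r = 0.98, deviations 0.986), a late cornified envelope gene, Sox17 (0.943, deviations 0.973), a transcription factor of endoderm and the bile duct system, and Esyt1 (0.941, deviations 0.83). Lce6a had 0.395, 0.115 and 0 CPM in bilCLiP 3D, against 19.9, 2.99 and 5.88 CPM in bilCLiP 2D. It had 0.147, 0 and 0 CPM in hepCLiP 3D, against 3.84, 1.00 and 12.4 CPM in hepCLiP 2D. Gzme had 13.9, 1.13 and 2.78 CPM in the same bilCLiP 2D libraries and 3.42, 0.682 and 9.34 CPM in the hepCLiP 2D libraries. In both origins the libraries therefore stand in the same order for both genes. Sox17 had 87.2, 14.9 and 18.8 CPM in bilCLiP 2D and 26.5, 10.0 and 66.6 CPM in hepCLiP 2D, again in that order. For Ly6d the closest were Stom (0.969, deviations 0.606), Mbl1 (0.969, deviations 0.594), a mannose-binding lectin secreted by the liver, and Insig2 (0.964, deviations 0.305), a regulator of sterol synthesis.

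Sprr1a and Prr9 lie on chromosome 3 with 13 protein-coding genes between them in GRCm38, all in the count table. Of these 13, 1 had no count in any library, 3 passed the filter and 11 had more counts in 2D than in 3D. These are raw counts, and effective library sizes were larger in 2D. Sprr2d and Sprr2e rested on 1 count each. No share of all genes is set beside the 11, so nothing is read from it. Together the 13 genes had 5 counts in the 3D libraries and 837 in the 2D libraries. The nearest of them to Sprr1a with more than 1 count, Sprr1b, encodes another small proline-rich protein. It had no count in bilCLiP 3D, against 79 in bilCLiP 2D, and no count in hepCLiP 3D, against 288 in hepCLiP 2D. By the floor of 3 summed counts it was at least 18.5-fold lower in bilCLiP 3D and at least 63.6-fold lower in hepCLiP 3D (edgeR adjusted p = 0.0419 and 0.0151). In bilCLiP, leaving out any of 8 libraries ended the Sprr1b call (adjusted p 0.0548 to 0.0933). In hepCLiP 2D, Sprr1b was spread as Prr9 was, with 126, 159 and 3 counts.

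On the other side of Sprr1a, Ivl, the gene of the envelope protein involucrin, had 25 counts in bilCLiP 3D, against 453 in bilCLiP 2D, and 22 in hepCLiP 3D, against 417 in hepCLiP 2D. It fell by 3.62 ± 0.919 on the log2 scale in bilCLiP (edgeR adjusted p = 0.0132) and fell by 3.66 ± 0.927 in hepCLiP (adjusted p = 0.0112). Leaving out bilCLiP 3D replicate 2 or replicate 3 ended the bilCLiP call (adjusted p = 0.057 and 0.0546). Without replicate 1 of 3D the log2 fold change of Ivl was -4.57 in bilCLiP and -4.67 in hepCLiP, and without hepCLiP 2D replicate 3 it was -2.52 in hepCLiP. Lce6a fell by 5.81 ± 1.31 in bilCLiP (adjusted p = 0.00755) and fell by 6.72 ± 1.52 in hepCLiP (adjusted p = 0.00644), on 8 and 2 counts in 3D. Lce6a passed the filter on low counts through 2D alone and could hardly be called other than lower. Its log2 fold change ran from -9.75 without hepCLiP 3D replicate 1 to -5.48 without hepCLiP 2D replicate 3, and from -7.21 without bilCLiP 3D replicate 1 to -4.69 without bilCLiP 2D replicate 1. Beside Prr9, Lor, the gene of loricrin, had 27 counts in bilCLiP 3D, against 174 in bilCLiP 2D, and 80 in hepCLiP 3D, against 452 in hepCLiP 2D.

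**Figure D4:**
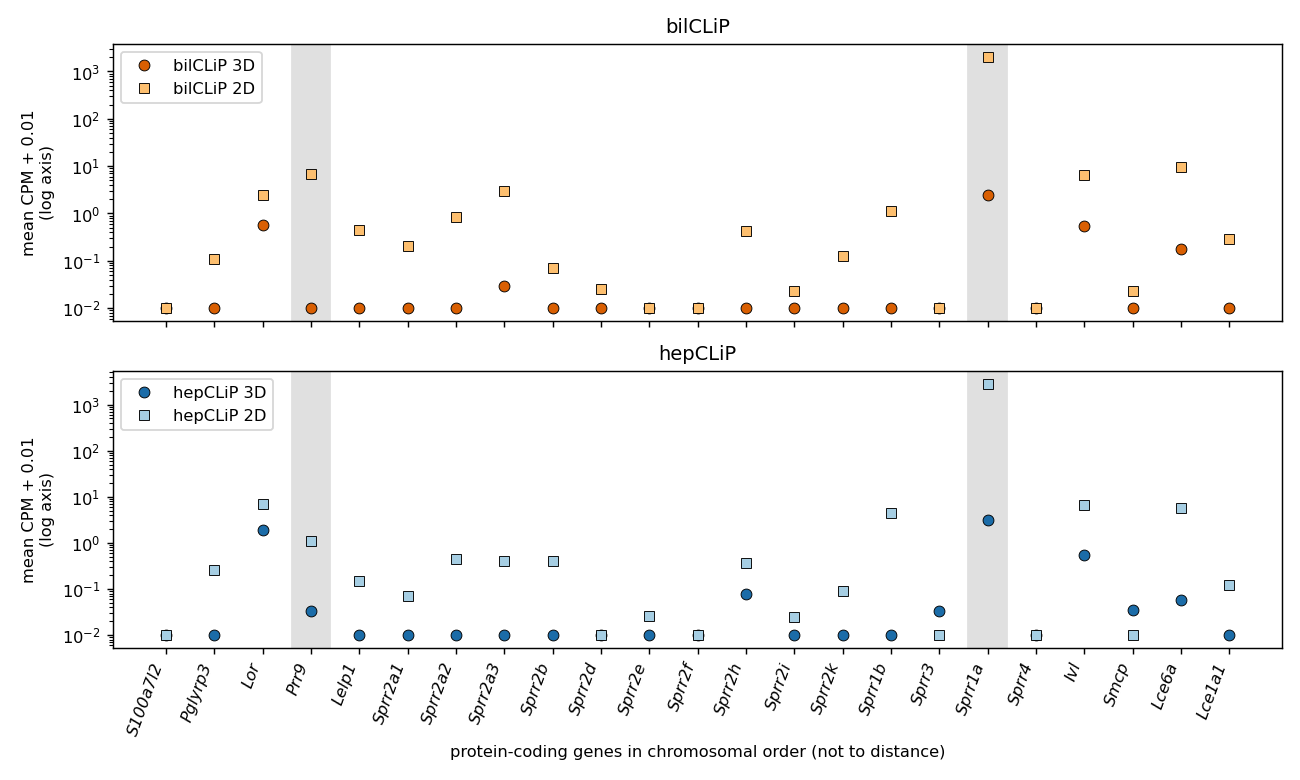
Mean level of protein-coding genes around and between Prr9 and Sprr1a in chromosomal order, in bilCLiP (top) and hepCLiP (bottom). The y axis is mean CPM plus 0.01 on a log scale, circles are 3D and squares 2D, and grey bands mark Prr9 and Sprr1a; Sprr1a stands at 2066 CPM in bilCLiP 2D and 2844 CPM in hepCLiP 2D, while every other gene shown averages under 10 CPM.

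A wider list of 60 cornified envelope and squamous genes without the 5 was examined, of which 59 are in the table, 13 had no count and 17 could be tested. In bilCLiP 7 were called lower in 3D and 0 higher, where 30.3% of all genes were called, 14.5% lower and 15.8% higher. In hepCLiP 6 were lower and 1 higher, where 34.7% of all genes were called, 17.9% lower and 16.9% higher. The 6 were lower in both. Without bilCLiP 3D replicate 2 only 3 were called lower in bilCLiP, and without 3D replicate 3 only 4. With RosaYFP libraries only, 1 was called lower in hepCLiP. The median log2 fold change of those tested was -1.0 in bilCLiP and -0.58 in hepCLiP, against medians of all genes tested of 0.00 and -0.06. The medians are the same with genes at 0 in 3D taken at their bound. Sprr1b and Sprr2a2 had no count in 3D, and Sprr2a3 had 1 in bilCLiP 3D and 0 in hepCLiP 3D. These genes passed the filter on low counts through 2D alone and could hardly be called other than lower. No excess over the shares of all genes is therefore read from the counts of called genes. When only the hepCLiP libraries were fitted, 3 members were called lower, since Lor missed the threshold and Sprr1b and Sprr2a2 did not pass the filter on low counts.

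Besides Sprr1b, Ivl and Lor, the genes called lower in both were Sprr2a2, S100a7a and Ppl. Sprr2a2 had no count in 3D, against 58 counts in bilCLiP 2D and 28 in hepCLiP 2D, at least 13.6-fold and at least 6.18-fold lower (edgeR adjusted p = 0.00483 and 0.0102). Ppl encodes periplakin, which links the envelope to desmosomes and filaments. It averaged 88.2 ± 21.9 CPM in bilCLiP 3D and 380.2 ± 80.6 CPM in bilCLiP 2D (adjusted p = 0.00154). In hepCLiP it averaged 83.5 ± 34.0 CPM in 3D and 560.2 ± 170.5 CPM in 2D (adjusted p = 0.000382). S100a7a, a calcium-binding protein gene, fell by 3.87 ± 1.20 in bilCLiP (adjusted p = 0.0322) and fell by 4.97 ± 1.32 in hepCLiP (adjusted p = 0.0139). Sprr2a3 fell in bilCLiP (-6.84 ± 1.59, adjusted p = 0.0118) and was at -5.96 ± 2.20 in hepCLiP (adjusted p = 0.0652). Of its 204 counts in bilCLiP 2D, 171 came from replicate 3, and without that library the value was -4.69. Without bilCLiP 3D replicate 3, which held its only count in bilCLiP 3D, it was -8.86. Lor fell by 2.15 ± 0.663 in bilCLiP (adjusted p = 0.0312) and fell by 1.87 ± 0.627 in hepCLiP (adjusted p = 0.0389).

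The gene called higher, Pkp1 of the desmosomal plaque, averaged 1.42 ± 1.39 CPM in hepCLiP 3D and 0.0912 ± 0.12 CPM in hepCLiP 2D (log2 3.84 ± 1.16, edgeR adjusted p = 0.025). The Pkp1 call was lost without hepCLiP 3D replicate 1, 2D replicate 1 or 2D replicate 3 (adjusted p 0.0733 to 0.111), and its value was 2.74 without 3D replicate 1 and 5.54 without 2D replicate 2. That of S100a7a was lost without any of 4 bilCLiP libraries in bilCLiP (0.0535 to 0.111) and without hepCLiP 3D replicate 1 or 2D replicate 3 in hepCLiP (0.0553 to 0.0628), and without hepCLiP 2D replicate 3 its log2 fold change was -2.74. In bilCLiP the S100a7a value was -5.28 without 3D replicate 3 and -3.10 without 2D replicate 2. The Lor call was lost without any of 3 libraries in bilCLiP (0.0908 to 0.112) and any of 6 in hepCLiP (0.0502 to 0.126). The Sprr2a3 call was lost without bilCLiP 3D replicate 2 (0.0507). The keratins of basal squamous cells were near 0 throughout. Krt5 had 1 count in bilCLiP 3D, 18 in bilCLiP 2D, 1 in hepCLiP 3D and 3 in hepCLiP 2D, and Krt14 had 0, 19, 0 and 2. Krt1, a keratin of the upper epidermis, had no count in any library.

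**Figure D5:**
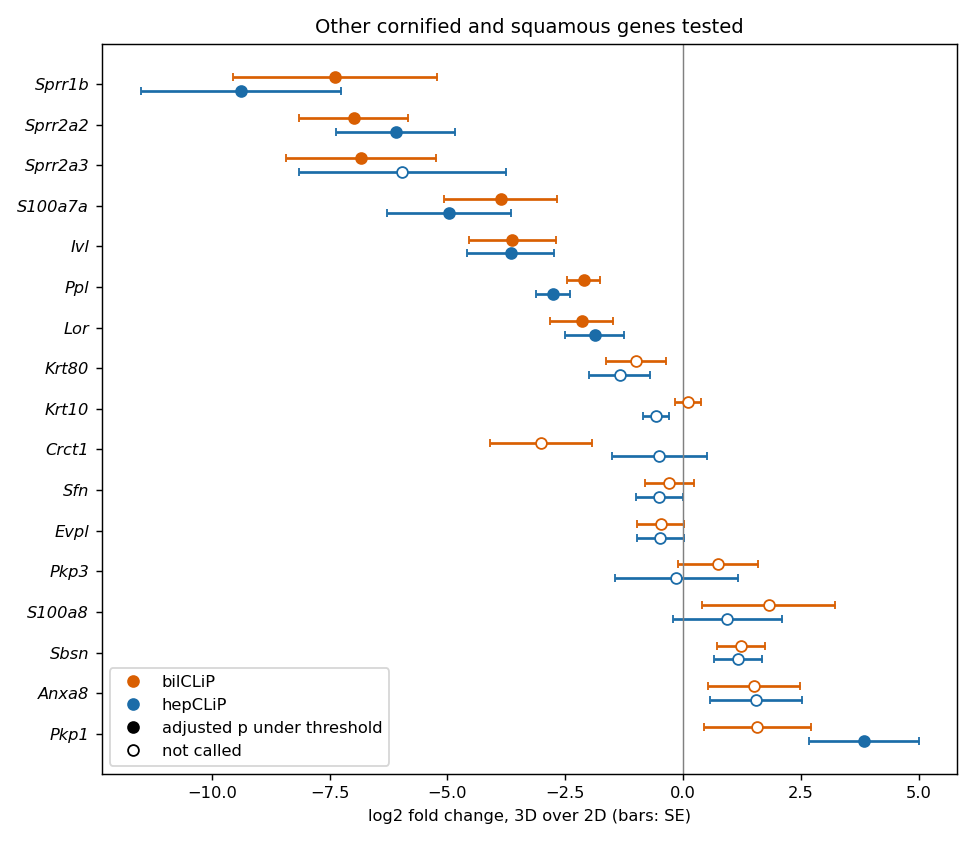
Log2 fold change of 3D over 2D for the cornified and squamous genes that could be tested, without the 5 genes chosen, in bilCLiP (orange) and hepCLiP (blue). Points are fitted values with bars of 1 SE, and filled points are called at an adjusted p under 0.05; 7 genes are called lower in bilCLiP, 6 lower and 1 higher in hepCLiP.

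Of 20 transcription factors of squamous cells and the AP-1 family, 13 could be tested. In bilCLiP 3 were lower and 1 higher, and in hepCLiP 3 lower and 2 higher, with medians of 0.34 and 0.17. The shares of those tested that were called are close to those of all genes, 30.3% in bilCLiP and 34.7% in hepCLiP. With the replicate block, 4 were called higher in bilCLiP, and without bilCLiP 2D replicate 3 or 3D replicate 2 only 1 was called lower there. The number higher in bilCLiP was 0 without 2D replicate 2 or 3D replicate 3, and 2 without 2D replicate 3 or hepCLiP 3D replicate 1. In hepCLiP it was 1 without any of 2D replicates 1 to 3 or 3D replicate 1, and with RosaYFP libraries only no factor was called in either direction. The genes called lower were members of the Fos family. Fosl1, which encodes Fra-1, averaged 0.597 ± 0.189 CPM in bilCLiP 3D and 8.23 ± 4.33 CPM in bilCLiP 2D (log2 -3.77 ± 0.509, edgeR adjusted p = 0.000498). In hepCLiP it averaged 1.62 ± 0.379 CPM in 3D and 14.9 ± 7.23 CPM in 2D (-3.20 ± 0.482, adjusted p = 0.000746). Fos fell by 2.59 ± 0.678 in bilCLiP (adjusted p = 0.0154) and fell by 2.80 ± 0.691 in hepCLiP (adjusted p = 0.00992). The Fos call in bilCLiP was lost without 2D replicate 3, 3D replicate 2 or 3D replicate 3 (adjusted p 0.0515 to 0.0535), and its hepCLiP value was -1.51 without 2D replicate 3.

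Fosl2 was called lower in bilCLiP (-0.71 ± 0.238, adjusted p = 0.043) and Fosb in hepCLiP (-3.85 ± 1.13, adjusted p = 0.0221). In the fit that blocks by replicate number, the Fosb value was -2.81 and its adjusted p 0.0823, and without hepCLiP 2D replicate 3 it was -1.35. The Fosb call was lost without any of 4 libraries (adjusted p 0.058 to 0.175) and that of Fosl2 without any of 6 (0.0587 to 0.163). Jun, Junb and Jund, the partners of Fos proteins in AP-1, were not called in either origin. Ehf, an Ets factor of epithelia, was higher in 3D in both (1.86 ± 0.515, adjusted p = 0.02, and 1.83 ± 0.519, adjusted p = 0.0191), each call being lost without any of 2 libraries. Zfp750, a regulator of epidermal differentiation, was called higher in hepCLiP (3.16 ± 0.889, adjusted p = 0.0185) and stood at 2.19 ± 0.829 in bilCLiP (adjusted p = 0.0694). The hepCLiP call was lost without 3D replicate 1, where the value was 1.81, or 2D replicate 2. Trp63, the p63 gene of basal squamous cells, had 3 counts in bilCLiP 3D, 0 in bilCLiP 2D, 10 in hepCLiP 3D and 2 in hepCLiP 2D.

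Other granzyme genes were scarce. Of the 9 other granzyme genes 6 had no count in any library, namely Gzma, Gzmc, Gzmf, Gzmg, Gzmk and Gzmn. Gzmb had 2 counts in bilCLiP 3D, 8 in bilCLiP 2D, 1 in hepCLiP 3D and 5 in hepCLiP 2D, and Gzmd had 0, 5, 0 and 3. Gzmm, the only one of them tested, averaged 0.236 ± 0.194 CPM in bilCLiP 3D and 0.525 ± 0.219 CPM in bilCLiP 2D (edgeR adjusted p = 0.209), and 0.215 ± 0.148 CPM in hepCLiP 3D and 0.753 ± 0.0468 CPM in hepCLiP 2D (adjusted p = 0.0565). It was called in neither origin. On chromosome 14, Gzme lies between Gzmd and Ctsg, the cathepsin G gene, which had no count. Next to Ctsg, Mcpt8, a mast cell protease gene of the same cluster, had 30 counts in bilCLiP 3D, against 277 in bilCLiP 2D, and 18 in hepCLiP 3D, against 226 in hepCLiP 2D. It fell by 2.67 ± 0.787 in bilCLiP (adjusted p = 0.0259) and fell by 3.03 ± 0.818 in hepCLiP (adjusted p = 0.0152). The Mcpt8 call was lost without any of 3 bilCLiP libraries (adjusted p 0.0918 to 0.111), and without hepCLiP 3D replicate 2 in hepCLiP (0.0571). Its values were -1.77 without bilCLiP 2D replicate 1 and -4.23 without hepCLiP 3D replicate 1.

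Of 15 genes for granule partners and granzyme inhibitors, 10 could be tested. In bilCLiP 4 were lower in 3D and 1 higher, and in hepCLiP 6 were lower and 0 higher, with medians of -0.84 and -1.62. Of all genes, 14.5% were lower and 15.8% higher in bilCLiP, and 17.9% lower and 16.9% higher in hepCLiP. With RosaYFP libraries only, 2 were called lower in hepCLiP. Among the partners, Prf1, the perforin gene, had no count, and Srgn, the gene of the granule proteoglycan serglycin, had 3 counts in all. M6pr and Igf2r, also among the partners, were not scarce. M6pr averaged 207 CPM in bilCLiP 3D and 178 CPM in hepCLiP 3D and was not called. Igf2r averaged 226 CPM in bilCLiP 3D and 492 CPM in bilCLiP 2D (edgeR adjusted p = 0.00387). In hepCLiP it averaged 242 CPM in 3D and 486 CPM in 2D (adjusted p = 0.00571). Several serpin genes related to the granzyme B inhibitor were present and lower in 3D. Serpinb9b averaged 1.65 ± 1.33 CPM in bilCLiP 3D and 164 ± 30.8 CPM in bilCLiP 2D (log2 -6.61 ± 0.673, edgeR adjusted p = 0.000119). In hepCLiP it averaged 0.209 ± 0.303 CPM in 3D and 20.0 ± 5.37 CPM in 2D (-6.51 ± 0.798, adjusted p = 0.000267). Without hepCLiP 3D replicate 3 its value in hepCLiP was -8.88, and without bilCLiP 3D replicate 2 that in bilCLiP was -7.35.

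Serpinb9, the granzyme B inhibitor itself, averaged 59.3 ± 9.41 CPM in bilCLiP 3D and 392 ± 131 CPM in bilCLiP 2D (edgeR adjusted p = 0.000627), and 17.6 ± 5.80 CPM in hepCLiP 3D and 59.9 ± 28.8 CPM in hepCLiP 2D (adjusted p = 0.00468). Serpinb6b fell by 1.60 ± 0.297 in bilCLiP (adjusted p = 0.00267) and fell by 1.47 ± 0.297 in hepCLiP (adjusted p = 0.00352). Serpinb9g had no count in hepCLiP 3D, against 97 in hepCLiP 2D, and was at least 21.4-fold lower (edgeR adjusted p = 0.0165). With no count in hepCLiP 3D, Serpinb9g could only be called lower there. The bilCLiP libraries had 5 counts in 3D and 47 in 2D (adjusted p = 0.164, not called). Ctsc, the cathepsin C gene, whose product activates granzymes, was called higher in bilCLiP 3D (1.90 ± 0.646, adjusted p = 0.0471), a call lost without any of 10 libraries. The Serpinb9 genes are paralogs, and sequence shared among them was not measured, so their values are uncertain in that respect.

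Markers of lymphocytes, the usual source of granzymes, were scarce. Of 19 markers 7 had no count in any library, among them Cd3e, Cd3d, Cd3g, Nkg7 and Prf1, and 14 stayed under 10 counts in every library. Their summed level was 2.47 to 6.96 CPM in bilCLiP 3D and 3.45 to 3.58 CPM in bilCLiP 2D, and 2.34 to 4.40 CPM in hepCLiP 3D and 1.59 to 3.15 CPM in hepCLiP 2D. Of the 3 that could be tested, Il2rb, Coro1a and Lck, none was called in either origin. The B lineage list, of which Ly6d is no member, had 10 genes. Its summed level was 0.464 to 1.25 CPM in bilCLiP 3D and 0.855 to 1.25 CPM in bilCLiP 2D, and 0.0709 to 1.53 CPM in hepCLiP 3D and 0.50 to 1.30 CPM in hepCLiP 2D. Rag1 and Il7r, markers of early lymphocytes, had no count.

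Among markers of other cells, Msln, a gene of mesothelium, moved with Sprr1a. It averaged 17.4 ± 9.98 CPM in bilCLiP 3D and 701 ± 161 CPM in bilCLiP 2D, and 17 ± 10.5 CPM in hepCLiP 3D and 559 ± 372 CPM in hepCLiP 2D (edgeR adjusted p = 0.000524 and 0.000572). The summed level of 6 mesothelial markers was 13.0 to 28.1 CPM in bilCLiP 3D and 547 to 874 CPM in bilCLiP 2D, and 5.93 to 26.1 CPM in hepCLiP 3D and 334 to 989 CPM in hepCLiP 2D. In 2D nearly all of that sum was Msln. Other markers of the list were scarce, with 12 counts of Wt1 in bilCLiP 2D and 6 in hepCLiP 2D, and 3 of Upk3b in each. Of the 2 mesothelial genes tested, Msln was called lower in each origin. The other, Gpm6a, was called in neither (edgeR adjusted p = 0.874 in bilCLiP and 0.637 in hepCLiP). Fibroblast markers had 1 of 2 tested genes called higher in hepCLiP and 0 in bilCLiP, endothelial markers 1 of 1 called lower in bilCLiP and 0 in hepCLiP, and macrophage markers 1 of 4 called higher in each. Of 10 biliary markers, 3 were lower and 2 higher in bilCLiP 3D, and 5 lower and 2 higher in hepCLiP 3D. All 10 hepatocyte markers were higher in both. Of all genes tested, 14.5% were called lower and 15.8% higher in bilCLiP 3D, and 17.9% lower and 16.9% higher in hepCLiP 3D. Whether cells of these types were present, and their part in the levels of the 5 genes, was not tested.

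The family of Clca3b has 6 other genes, of which 5 could be tested. Of these, 0 were called in bilCLiP and 1, Clca4b, was called lower in hepCLiP 3D. Of all genes tested, 30.3% were called in bilCLiP and 34.7% in hepCLiP. Clca3a1, close to Clca3b on chromosome 3, averaged 79.7 ± 17.5 CPM in bilCLiP 3D and 148 ± 121 CPM in bilCLiP 2D (edgeR adjusted p = 0.534). In hepCLiP it averaged 29.4 ± 30.9 CPM in 3D and 43.1 ± 35.3 CPM in 2D (adjusted p = 0.699). It ran from 2.73 to 68.5 CPM within hepCLiP 2D. Clca4b, next to Clca3b, had 43 counts in bilCLiP 3D, against 219 in bilCLiP 2D (adjusted p = 0.222), and 1 count in hepCLiP 3D, against 55 in hepCLiP 2D. The hepCLiP ratio was 0.0275 (exact 95% interval 0.000683 to 0.159), with an adjusted p of 0.047 that was over 0.05 on leaving out any of 8 libraries (0.0539 to 0.127). Clca1, Clca3a2 and Clca4a were tested and not called in either origin, and Clca2 had 3 counts in all. The median log2 fold change of the 5 genes tested was -1.27 in bilCLiP and -1.41 in hepCLiP. Among neighbours of Clca3b outside the family, Sh3glb1 was called lower in bilCLiP (-0.68 ± 0.125, edgeR adjusted p = 0.00244) and in hepCLiP (-0.55 ± 0.125, adjusted p = 0.00652). Selenof and Odf2l were called in neither origin.

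Of 31 genes of the Ly6 family without Ly6d, 10 could be tested, and 6 had no count. In each origin 2 were higher in 3D and 1 lower, with medians of 0.45 in bilCLiP and 0.94 in hepCLiP. The share called is close to that of all genes, 30.3% in bilCLiP and 34.7% in hepCLiP. Ly6g2 was the gene higher in both, at 55.0 ± 12.6 CPM in bilCLiP 3D and 8.38 ± 5.48 CPM in bilCLiP 2D (log2 2.71 ± 0.513, edgeR adjusted p = 0.00297). In hepCLiP it was at 75.6 ± 28.7 CPM in 3D and 24.2 ± 7.26 CPM in 2D (1.64 ± 0.49, adjusted p = 0.0244), a call lost without any of 3 hepCLiP libraries (0.0734 to 0.0897). Lynx1, which modulates nicotinic receptors, was called in bilCLiP (1.02 ± 0.272, adjusted p = 0.0165, lost without any of 3 libraries) and not in hepCLiP (0.50 ± 0.27, adjusted p = 0.173). Ly6e was at 1.37 ± 0.485 in hepCLiP (adjusted p = 0.0494, lost without any of 8 libraries) and at 1.32 ± 0.485 in bilCLiP (adjusted p = 0.0618). Plaur, the urokinase receptor gene, fell by 2.09 ± 0.322 in bilCLiP (adjusted p = 0.00103) and fell by 2.43 ± 0.327 in hepCLiP (adjusted p = 0.000423).

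Around Ly6d on chromosome 15, Slurp1, Slurp2, Lypd2 and Ly6k had no count in any library. Them6, also near Ly6d, was lower in 3D but not called. It averaged 20.8 CPM in bilCLiP 3D and 23.7 CPM in bilCLiP 2D (edgeR adjusted p = 0.679). In hepCLiP it averaged 40.6 CPM in 3D and 69.7 CPM in 2D (edgeR adjusted p = 0.0649). Gml and Gml2, which lie beyond Ly6k, were low and higher in 3D. Both passed the filter on low counts through 3D alone and could hardly be called other than higher. Of all genes tested, 15.8% were called higher in bilCLiP 3D and 16.9% in hepCLiP 3D. Gml had 116 counts in bilCLiP 3D, against 23 in bilCLiP 2D, and 133 in hepCLiP 3D, against 27 in hepCLiP 2D. Its log2 fold changes were 2.81 ± 0.753 (edgeR adjusted p = 0.0168) and 2.89 ± 0.749 (adjusted p = 0.0122). Gml2 had 74 counts in bilCLiP 3D, against 8 in bilCLiP 2D, and 60 in hepCLiP 3D, against 12 in hepCLiP 2D. Its log2 fold changes were 3.64 ± 0.835 (adjusted p = 0.00797) and 2.89 ± 0.801 (adjusted p = 0.017), and the hepCLiP call was lost without any of 3 libraries (0.0569 to 0.0613). Its values were 4.48 in bilCLiP without 2D replicate 3 and 3.83 in hepCLiP without 2D replicate 1. No source used here gives the strand setting of the counting, so at these loci reads of overlapping or antisense genes cannot be told apart.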

How the data were processed

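Raw counts per gene for 12 libraries, and normalized values, were deposited by the authors. Per the submitters' processing notes, the tools were STAR 2.7.10b, featureCounts 2.0.1 and DESeq2 (no version), with GRCm39. No source used here gives the annotation or strand. In the deposited normalized table (unit signal), each library's values are its counts divided by 1 factor, and it served as an alternative. The counts entered edgeR 4.0.16 under R 4.3.3, with filterByExpr (14798 genes kept), TMM, a robust quasi-likelihood fit of 4 group means, and Benjamini-Hochberg adjustment over all genes tested, with calls at an adjusted p under 0.05. The fit was checked on simulated counts. DESeq2 1.42.0, other scaling, no filter, 2 groups only, a replicate block, RosaYFP libraries only and leaving out each library were alternatives. CPM uses TMM effective library sizes. No pair of replicates was identical, and all pairs differed by more than sampling noise.

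The 5 genes and all lists were chosen with earlier results of these data known, and the B lineage list after its values were seen. Named were the 5 genes and the 3 genes most like each (Pearson's r, among genes whose mean reached 5 CPM in some group). Of the 5 protein-coding neighbours on each side only some were named, with their values known. Also named were up to 4 called genes per list and contrast, and all granzyme and Clca genes. Other genes named were chosen after their values were seen. These were Ppl, Ivl, Lor, Krt5, Krt14, Krt1, Jun, Junb, Jund, Trp63, Ehf in hepCLiP, Prf1, Srgn, M6pr, Igf2r and cell markers. Deviations from group means of same-numbered 3D and 2D libraries of an origin had correlations of 0.432 to 0.513. The labels do not state a shared source. The main fit, and so its errors and adjusted p-values, did not pair the libraries. For 3D against 2D, only the replicate block, an alternative, took same-numbered libraries of an origin as pairs. Neighbours, transcripts and promoters come from GRCm38 (GENCODE M21 and RefSeq), and no GRCm39 coordinates were used.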

Additional observations from a re-analysis of the deposited data

How the results depend on the processing

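For 3D against 2D, no alternative turned the direction of any of the 5 genes. That could hardly be otherwise, since they were chosen on this contrast and their groups did not overlap in either origin. With RosaYFP libraries only, which leaves 1 hepCLiP library per culture whose spread is then taken to be that of bilCLiP, 769 genes were called in hepCLiP in place of 5139, with log2 fold changes of -10.90 for Sprr1a, -8.37 for Prr9, -5.61 for Clca3b and -6.76 for Gzme. DESeq2 gave -9.27 for Prr9 in bilCLiP. Leaving out 1 library gave, in bilCLiP, -11.14 to -9.24 for Sprr1a, -10.30 to -9.22 for Prr9, -10.40 to -8.99 for Clca3b, -9.84 to -6.17 for Gzme and 7.63 to 11.09 for Ly6d, and in hepCLiP -10.94 to -9.38, -7.44 to -4.40, -9.07 to -6.67, -5.80 to -4.04 and 5.76 to 7.93. The numbers of genes called were then 3088 to 4555 in bilCLiP and 4133 to 5227 in hepCLiP.

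For bilCLiP against hepCLiP, main counts of 20 genes in 2D and 15 in 3D became 467 and 575 with DESeq2, 62 and 44 with a replicate block, 5 and 3 with only the 2 groups, 6 to 31 and 3 to 251 on leaving out 1 library, and 5 in 2D with RosaYFP libraries only. In 2D the difference of Clca3b was 0.04 with RosaYFP libraries only, and -0.65 to 0.16 on leaving out 1 library. Gzme in 2D ran from -1.20 to 1.52, with -0.11 without hepCLiP 2D replicate 2, and Clca3b was 0.14 without bilCLiP 2D replicate 2. In 3D the differences with RosaYFP libraries only were 0.62 for Sprr1a and 2.06 for Gzme, and Sprr1a ran from -1.78 to 0.74 on leaving out 1 library. Prr9 in 3D has no value without hepCLiP 3D replicate 3 or with RosaYFP libraries only, since both groups are then at 0. The cause of these shifts was not tested. Across origins, same-numbered libraries had correlations of 0.022 to 0.15, and those with different numbers -0.168 to 0.123. Whether the numbers pair libraries across origins cannot be told from these values. Within origins the block ended the Fosb call in hepCLiP, where its value was -2.81, and no other named call. Among other named genes, calls lost with RosaYFP libraries only numbered 4 in bilCLiP (Ehf, Fosl2, Ctsc and Lynx1) and 21 in hepCLiP. Without a low-count filter, Ehf, Clca4b, Ly6g2 and Ly6e were no longer called in hepCLiP, nor Sprr1b, S100a7a, Fos, Ehf and Ctsc in bilCLiP, and with only the 2 groups Lor, Fosb and Ly6e in hepCLiP and Fosl2, Ctsc and Lynx1 in bilCLiP were not, all with the same direction. Values near 0 counts limit Prr9, Clca3b and Gzme in 3D and Ly6d in 2D.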
